A study of Mus musculus with 13 samples.

Results

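The Hox genes are followed here through spontaneous immortalization of mouse embryonic fibroblasts (MEFs), by cluster and by paralog number. The members are 38 mouse Hox genes, chosen by symbol and matched to the gene identifiers of the count tables, and all 38 were found among 55487 genes. Of these, 10 lie in Hoxa on chromosome 6, 10 in Hoxb on chromosome 11, 9 in Hoxc on chromosome 15 and 9 in Hoxd on chromosome 2. Paralog numbers up to 8 are called anterior here (22 genes) and numbers from 9 to 13 posterior (16 genes). Poly-A RNA was sequenced from 13 libraries: WT primary MEFs (pMEFs) of clones 3, 4 and 5, the immortalized MEFs (iMEFs) of the same 3 clone numbers, Prkd3-/- pMEFs of clones 13, 14 and 15, and Prkd3-/- iMEFs of clones 13, 13a, 14 and 15. All were grown in medium with 10% fetal calf serum, and cultures that had become senescent after serial passage were moved to 20% serum until immortalized colonies arose and gave rise to lines. Each WT primary culture came from an embryo of its own and gave 1 line, so a line is a single history of immortalization, and no age, strain or Cre driver is named in the labels. The Prkd3-/- samples are labelled as lacking protein kinase D3 in both states and are held in a table of their own, so genotype, embryo and table cannot be told apart.

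Hox proteins are homeodomain transcription factors that set positional identity along the body axis and, for the posterior Hoxa and Hoxd genes, along the limb. The genes stand in clusters on separate chromosomes, and within a cluster their order matches the order of their domains of expression, from anterior to posterior, a property called collinearity. Fibroblasts keep a Hox pattern that reflects the site they came from, and in culture this pattern is passed on through cell division, held by Polycomb and Trithorax chromatin complexes. A preparation of MEFs from a whole embryo body is a mixture of cells with many such patterns.

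The 250 bases before the annotated start of the 5 genes that passed the test in the WT lines are shown first, because these genes fell together. They were taken from RefSeq on GRCm38.p6, read 5′ to 3′ on the strand of the gene. RefSeq windows were held for 22 of the 38 members, 24 windows in all. Capitals mark matches on either strand to any of the motifs searched. These were the TATA box, spelled TATAAA, and the CCAAT box, spelled by its name. A core bound by posterior Hox proteins was searched as TTTATNG. A joint site of Pbx and Hox proteins was searched as TGATTNAT. A TTTATNG match can overlap a TATA box on the other strand. Hoxd11 has 2 annotated starts.
Hoxd13, chr2:74667975-74668224, plus strand: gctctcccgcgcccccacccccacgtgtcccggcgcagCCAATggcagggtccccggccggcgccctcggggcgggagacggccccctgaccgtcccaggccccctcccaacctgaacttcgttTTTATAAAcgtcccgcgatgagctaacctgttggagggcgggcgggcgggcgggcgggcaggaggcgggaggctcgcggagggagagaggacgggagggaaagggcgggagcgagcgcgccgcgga
Hoxd12, chr2:74674763-74675012, plus strand: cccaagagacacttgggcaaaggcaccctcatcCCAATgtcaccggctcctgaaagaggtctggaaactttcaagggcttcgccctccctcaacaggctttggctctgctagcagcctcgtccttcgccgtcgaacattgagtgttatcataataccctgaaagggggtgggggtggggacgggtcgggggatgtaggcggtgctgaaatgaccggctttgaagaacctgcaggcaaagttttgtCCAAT
Hoxd11, chr2:74679308-74679557, plus strand: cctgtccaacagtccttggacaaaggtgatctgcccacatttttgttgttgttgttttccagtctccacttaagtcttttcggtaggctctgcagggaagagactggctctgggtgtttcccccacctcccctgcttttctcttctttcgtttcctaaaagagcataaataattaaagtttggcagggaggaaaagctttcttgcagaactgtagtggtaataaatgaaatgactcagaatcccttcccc
Hoxd11, chr2:74682073-74682322, plus strand: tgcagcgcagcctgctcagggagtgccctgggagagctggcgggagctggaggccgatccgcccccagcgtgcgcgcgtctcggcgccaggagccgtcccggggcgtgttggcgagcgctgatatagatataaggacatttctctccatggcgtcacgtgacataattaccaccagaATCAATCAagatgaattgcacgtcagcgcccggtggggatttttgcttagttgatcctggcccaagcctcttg
Hoxd10, chr2:74691641-74691890, plus strand: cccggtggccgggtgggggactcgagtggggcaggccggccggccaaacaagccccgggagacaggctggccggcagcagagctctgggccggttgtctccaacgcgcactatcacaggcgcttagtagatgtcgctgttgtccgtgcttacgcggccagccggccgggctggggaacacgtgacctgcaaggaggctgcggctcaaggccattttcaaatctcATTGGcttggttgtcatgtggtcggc
Hoxa13, chr6:52260881-52261130, minus strand: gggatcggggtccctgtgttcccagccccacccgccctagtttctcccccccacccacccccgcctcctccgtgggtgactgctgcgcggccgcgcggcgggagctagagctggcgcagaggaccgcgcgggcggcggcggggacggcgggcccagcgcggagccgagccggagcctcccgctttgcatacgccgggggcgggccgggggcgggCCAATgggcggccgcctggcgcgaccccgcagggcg
A CCAAT box was matched in the windows of Hoxd13, Hoxd12, Hoxd10 and Hoxa13. It was held by 14 of the 24 member windows and by 33.8% of all 32851 windows of this length. TATAAA was matched only before Hoxd13 among these 6 windows, at 2 overlapping positions. It was held by 4 of the 24 member windows and by 12.4% of all. TTTATNG was held by 2 member windows, neither of them shown here, and by 9.81% of all, while TGATTNAT was held by 2 member windows, 1 of them the later start of Hoxd11, and by 2.82% of all. The windows of Hoxa13 and Hoxd13 were rich in G and C (80% and 74.4%, with 35 and 31 CpG dinucleotides), against a median of 52.4% and 6 CpG over all windows. The earlier Hoxd11 window held 44.8% G and C and 2 CpG. These matches describe the letters of the windows only.

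The libraries held between 35273408 and 100441756 counts. Prkd3 itself was listed at 69.2 to 93.7 CPM (counts relative to the library total) in the 6 WT libraries and at 33.6 to 61.0 CPM in the 7 Prkd3-/- libraries, so its RNA was lower in every library labelled Prkd3-/- than in every WT library without being lost. Gene counts do not show which exons are present. The 12 fibroblast markers summed to between 32597 and 102242 CPM in every library, and none was at 0 throughout a group. The 10 macrophage markers summed to 707 to 741 CPM in WT pMEFs and to 34.9 to 99.5 CPM in WT iMEFs, and 8 of the 10 were called lower in the WT lines. The 6 endothelial markers summed to 11.6 to 16.4 CPM in WT pMEFs and 0.371 to 1.998 CPM in WT iMEFs, with Tek called lower. The 6 skeletal muscle markers summed to 22.5 to 26.0 and 0.728 to 7.10 CPM. Of these, Myod1, Myog, Myf5 and Pax7 were at 0 in all 3 WT lines, but they and Pax3 were too low to be tested in WT. Des was the only 1 of that list tested there (Log2FC -2.96 ± 0.85 SE, adjusted p = 0.134, edgeR). The 6 epithelial markers summed to 2.36 to 2.72 and 0.177 to 0.542 CPM, and none of either list was called by edgeR. Thus the sums of the macrophage, endothelial, skeletal muscle and epithelial lists were lower in every WT line than in every WT primary library. Those of chondrocyte markers (190.0 to 247 and 76.5 to 731 CPM) and of Schwann and neural markers (35.4 to 39.4 and 38.6 to 139 CPM) were not. Nor were those of the fibroblast markers, at 60830 to 62980 CPM in WT pMEFs and 42939 to 102242 CPM in WT iMEFs. In Prkd3-/- pMEFs the macrophage markers summed to 95.6, 1074 and 232 CPM in clones 13, 14 and 15, and in the Prkd3-/- lines to 10.2 to 187 CPM. Prkd3-/- primary 14 also stood apart in its Hox genes, as given below. In bulk RNA, fewer cells of a type and less RNA per cell cannot be told apart, and this holds for each Hox level that follows. The part of these other cell types' markers in the Hox differences was not tested.

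The 3 WT primary cultures had nearly the same Hox pattern, with genes of all clusters and of both ends of the body axis present together. In clones 3, 4 and 5, 32, 33 and 32 of the 38 members reached 1 CPM. Per kilobase of exon, the members summed to 178, 178 and 167 CPM per kb, of which posterior genes made up 53.3%, 53.5% and 61.5%. Hoxd13, needed for the digits and the genital tubercle, had the highest level per length of all members in each of the 3, at 27.5, 28.2 and 36.0 CPM per kb. Within Hoxa, Hoxa10 led per length in WT pMEFs (12.6 ± 0.380 CPM per kb, SD, n = 3), against 7.87 ± 1.92 for Hoxa5. By the mean over all 13 libraries, which mixes unlike patterns, the highest members per length were Hoxa5 in Hoxa (11.2 CPM per kb), Hoxb9 in Hoxb (14.1), Hoxc6 in Hoxc (10.9) and Hoxd13 in Hoxd (23.6). The lowest members were Hoxb1, a hindbrain gene, Hoxd1, and Hoxb13, a gene of the tail end of the body. Hoxb1 had at most 4 counts in any library, Hoxd1 at most 4 and Hoxb13 at most 10, and these 3 were too low to be tested, which left 35 tested members in each genotype. Between the 3 WT pMEFs, the SD of log2 CPM had a median of 0.21 over the tested members, against 0.08 over all 19836 tested genes.

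**Figure D1:**
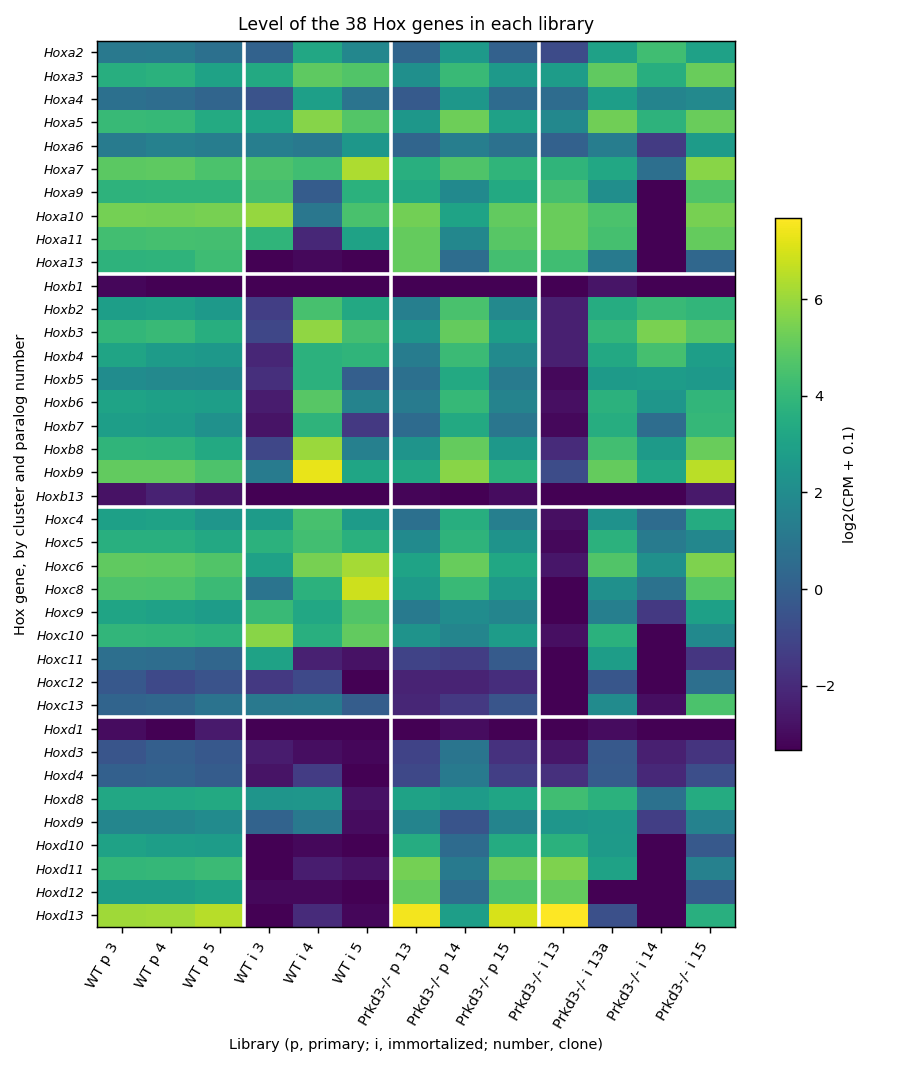
Level of each of the 38 Hox genes (rows, by cluster and paralog number) in each of the 13 libraries (columns, p for primary, i for immortalized, number for clone), as log2 of CPM plus 0.1. The 3 WT pMEFs look alike, whereas Hoxb is dark in WT line 3 and Prkd3-/- line 13, Hoxc in Prkd3-/- line 13, Hoxd in WT line 5, and most posterior genes in Prkd3-/- line 14.

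The WT comparison asked which Hox genes differ between the lines and the primary cultures. The posterior end of Hoxd, from Hoxd10 to Hoxd13, and the end gene of Hoxa, Hoxa13, fell from clear expression to a handful of counts in all 3 lines. These genes pattern the distal limb, the digits and the urogenital tract. With edgeR's quasi-likelihood test and Benjamini-Hochberg adjustment over 19836 genes, 5 of 35 tested members were called lower (adjusted p below 0.01 and |Log2FC| ≥ 1), against 1.76% of all tested genes. No member was called higher, against 0.0605% of all tested genes (12 genes), and 8 members had an unadjusted p under 0.05, against 19.7% of all tested genes.

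Hoxd13 (chr2:74668310-74671599) stood at 68.2, 70.1 and 89.3 CPM in WT primary 3, 4 and 5 and at 0, 0.152 and 0.0152 CPM in lines 3, 4 and 5. The groups did not overlap, and the 3 lines held 10 counts in all against 15887 in the primary libraries, a pooled level 1393-fold higher in pMEFs. Its Log2FC was -10.41 ± 0.83 (SE, adjusted p = 0.00285, edgeR).
Hoxd12 (chr2:74675013-74677705) stood at 6.79, 6.89 and 7.97 CPM in the primary libraries and at 0.0161, 0.0169 and 0 CPM in the lines. With 2 counts left in the lines, the pooled level was 667-fold higher in pMEFs (exact 95% interval 184 to 5513, counting error only). Its Log2FC was -9.16 ± 0.49 (SE, adjusted p = 0.000692, edgeR).
Hoxd11 (chr2:74679557-74687016), which with Hoxa11 shapes the forearm and the kidney, stood at 15.6, 16.2 and 18.1 CPM in the primary libraries and at 0, 0.0846 and 0.0457 CPM in the lines. The lines held 8 counts against 3514, a level 385-fold higher in pMEFs. Its Log2FC was -8.53 ± 0.70 (SE, adjusted p = 0.00293, edgeR). Of its exon bases, 10.8% also belong to the predicted gene Gm28309.
Hoxd10 (chr2:74691924-74695105), a gene of the distal limb and the lumbar spinal cord, stood at 7.96, 7.05 and 6.76 CPM in the primary libraries and at 0, 0.0169 and 0 CPM in the lines. The lines held 1 count against 1545, a level 1354-fold higher in pMEFs (exact 95% interval 243 to 53523, counting error only). Its Log2FC was -9.97 ± 0.59 (SE, adjusted p = 0.000953, edgeR).
Hoxa13 (chr6:52257694-52260880), the partner of Hoxd13 in digit and genital development, stood at 13.6, 14.2 and 19.2 CPM in the primary libraries and at 0, 0.0169 and 0 CPM in the lines. The lines held 1 count against 3263, a level 2860-fold higher in pMEFs (exact 95% interval 513 to 113001, counting error only). Its Log2FC was -11.08 ± 0.59 (SE, adjusted p = 0.000696, edgeR). In all 5 genes the 3 lines sat below the 3 primary libraries by far more than the spread in either group, and fitted values of such size depend on the small counts that edgeR adds. The SE beside them was derived from the test's F statistic and can be narrower than counting error. DESeq2's SE was larger for Hoxa13, Hoxd10 and Hoxd12 (1.21, 1.20 and 1.04) and smaller for Hoxd11 and Hoxd13 (0.55 and 0.63). Line 4 held 9 of the 10 Hoxd13 counts left in the lines and the single counts of Hoxa13 and Hoxd10. Without line 4 the Log2FC was -12.94 for Hoxd13, -13.06 for Hoxa13 and -11.95 for Hoxd10, and over all ways of leaving out 1 WT library the 5 genes ranged from -13.06 to -7.97.

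**Figure D2:**
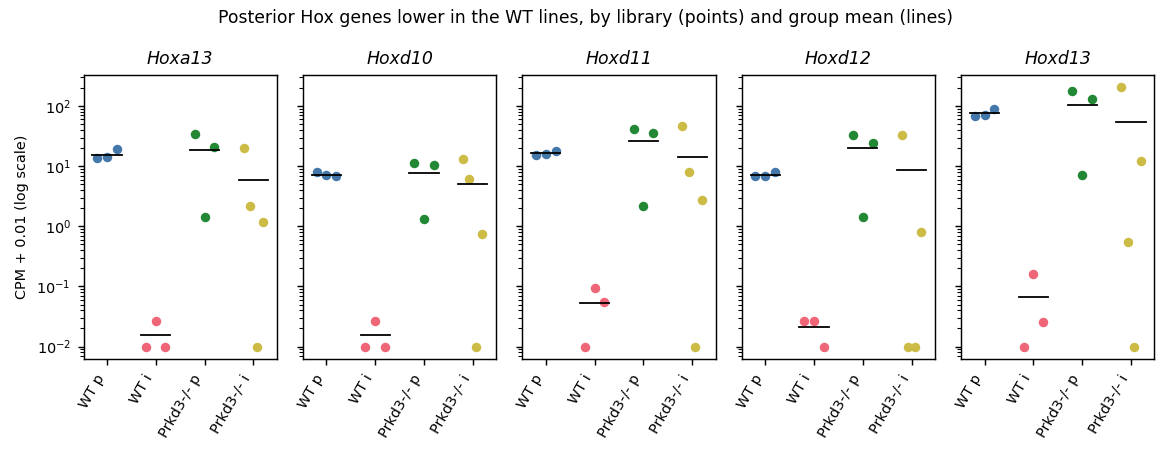
CPM plus 0.01 on a log axis for Hoxa13 and Hoxd10 to Hoxd13, with 1 point per library and a line at the group mean (p, primary; i, immortalized). All 3 WT lines sit below 0.2 CPM and all 3 WT pMEFs above 6 CPM, while the Prkd3-/- lines run from 0 to the level of the Prkd3-/- pMEFs.

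These calls rest on a small number of libraries. With the embryo number as a block in the edgeR fit, none of the 35 members and none of the 19836 genes was called (2784 genes and 8 members had an unadjusted p under 0.05), and the 5 genes had adjusted p from 0.0249 to 0.0447 with Log2FC from -11.08 to -8.63. Without WT primary 3, or without WT primary 4, 0 members were called, and without WT primary 5 there were 2 (Hoxa13 and Hoxd12), whereas leaving out line 3 gave 7 and leaving out line 4 or line 5 gave 5 each. The calls over all genes moved as well, among 20254 to 20402 tested genes. Those called lower numbered 48, 50 and 66 without primary 3, 4 and 5, and 458, 328 and 705 without line 3, 4 and 5. DESeq2 gave no adjusted p in WT for Hoxb5, Hoxb7, Hoxb8, Hoxb9 and Hoxc11, nor for the low members Hoxb1, Hoxb13 and Hoxd1. It gave an unadjusted p for 33 members and called 6 members lower, against 3.71% of the 33349 genes it tested. The sixth, Hoxd3, a gene of the neck vertebrae, stood at 0.644, 0.914 and 0.715 CPM in the primary libraries and at 0.0806, 0.0339 and 0.0152 CPM in the lines, with an adjusted p of 0.0126 in edgeR and 1.27e-08 in DESeq2. Hoxd3 has 62.8% of its exon bases in common with other genes, and reads there count for each of them.

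The other tested Hoxd members did not pass the test, although their libraries did not overlap between the groups. Every line lay below every primary library for all 8 tested Hoxd members, for Hoxa11 and for Hoxa13, 10 members in all, against 17.4% of all tested genes. Hoxd8, expressed in the trunk, stood at 9.43, 9.46 and 10.2 CPM in the primary libraries and at 5.27, 5.33 and 0.0457 CPM in the lines. Hoxd9 stood at 3.19, 3.24 and 3.83 CPM against 1.05, 2.08 and 0.0305 CPM. In both genes lines 3 and 4 kept a readable level and line 5 did not. Hoxd4 stood at 0.951, 1.00 and 0.822 CPM against 0.0483, 0.288 and 0 CPM. The adjusted p of these 3 ranged from 0.186 to 0.565 (edgeR). Only 2 members, Hoxc5 and Hoxc9, were higher in every line than in every primary library, against 13.9% of all tested genes. Hoxc9, a gene of the thoracic region, stood at 8.54, 7.77 and 6.74 CPM in the primary libraries and at 17.6, 9.65 and 26.0 CPM in the lines (Log2FC 1.21 ± 0.36 SE, adjusted p = 0.146, edgeR).

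Beyond the shared fall of Hoxd10 to Hoxd13 and of Hoxa13, each WT line had a Hox pattern of its own. The members' SD of log2 CPM had a median of 1.78 between the 3 lines, against 0.33 over all tested genes. The median Log2FC of the 35 members was 0.44, with 14 below 0. Over all 19836 tested genes the median was 0.036, with 9081 below 0. In line 3, Hoxb was close to silent: its highest member was Hoxb9 at 2.26 CPM, and all 8 tested Hoxb members were at least 2-fold lower than in WT primary 3 (ratios of CPM plus 0.1). Hoxc10, a gene of the lumbar region and the hindlimb, led this line per length and stood at 52.1 CPM against 15.2 CPM in WT primary 3. Posterior genes made up 68.9% of the Hox level in line 3. Line 4 held the opposite arrangement, with Hoxb9, a thoracic gene, at 160.5 CPM against 32.7 CPM in WT primary 4, and all 8 tested Hoxb members at least 2-fold higher. In the same line Hoxa9, Hoxa10 and Hoxa11 stood at 0.8294, 1.98 and 0.135 CPM against 13.9, 40.4 and 21.4 CPM in WT primary 4, so that posterior Hoxa was low while Hoxa5, known from lung development, stood at 51.2 CPM against 16.5 CPM. Line 5 was led per length by Hoxc8, which specifies brachial motor neurons and thoracic vertebrae, at 114 CPM against 17.9 CPM in WT primary 5. Hoxa7 stood at 78.8 CPM there against 23.6 CPM. In line 5 no Hoxd member exceeded 0.0457 CPM, and Hoxb7 stood at 0.259 CPM against 4.58 CPM. Posterior genes made up 31.0% of the Hox level in line 4 and 23.0% in line 5.

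**Figure D3:**
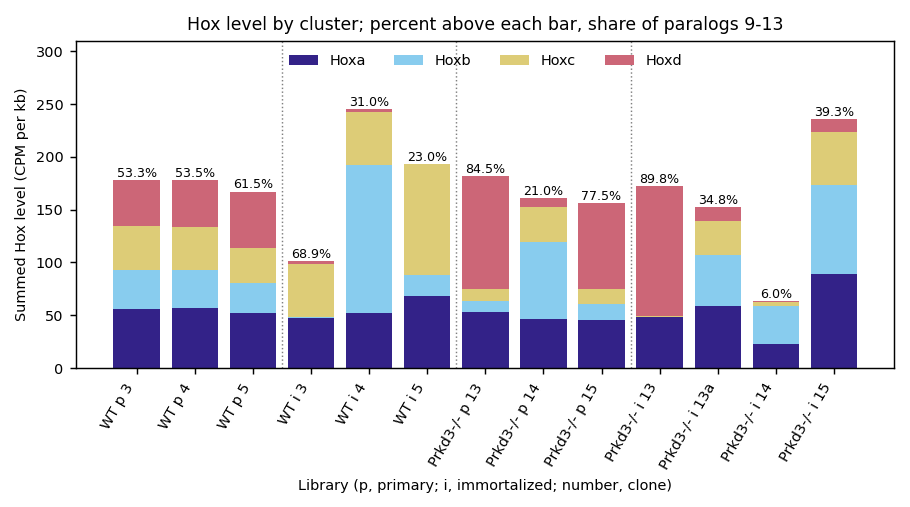
Summed level of the Hox genes of each cluster in CPM per kb (stacked bars) in each of the 13 libraries, with the share of paralog numbers 9 to 13 above each bar. The Hoxd part is 43.7 to 53.1 CPM per kb in the WT pMEFs and at most 3.12 in the WT lines, and the Hoxb part runs from 1.40 to 140 CPM per kb in the WT lines.

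The clusters differed in how steady their sums were. The Hoxa sum was 54.9 ± 2.39 CPM per kb (SD, n = 3) in WT pMEFs and 55.9 ± 10.95 in WT lines. The Hoxd sum was 47.0 ± 5.31 in WT pMEFs and 1.87 ± 1.61 in WT lines. For Hoxb and Hoxc the lines spread widely, with sums of 53.8 ± 75.4 and 68.3 ± 32.1 against 33.8 ± 5.16 and 38.7 ± 4.26 in the primary cultures. All members together summed to 174 ± 6.40 CPM per kb in WT pMEFs and 179.9 ± 73.0 in WT lines, a difference within the spread of the lines. The posterior share was 56.1% ± 4.66 in WT pMEFs and 41.0% ± 24.5 in WT lines.

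Counted against its own primary culture, WT line 3 differed mostly downwards, and lines 4 and 5 in both directions. Of the 35 tested members, line 3 held 21 at least 2-fold lower and 3 at least 2-fold higher, against 15.6% and 3.76% of all tested genes. In line 4, 11 were lower and 13 higher, against 13.7% and 3.22%. In line 5, 17 were lower and 10 higher, against 11.4% and 5.96%. The 13 higher members of line 4 included 12 of its 20 anterior members, whereas line 3 had none of its 20 anterior members 2-fold higher. These counts compare single libraries and have no replicate check.

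The members of the other clusters with the highest mean level per length over the 13 libraries showed no change that passed the test in WT. Hoxa5 stood at 17.2, 16.5 and 10.6 CPM in the primary libraries and at 8.22, 51.2 and 26.7 CPM in the lines (Log2FC 0.96 ± 0.63 SE, adjusted p = 0.466, edgeR). Hoxb9 stood at 32.3, 32.7 and 24.6 CPM in the primary libraries and at 2.26, 160.5 and 8.81 CPM in the lines (Log2FC 0.94 ± 1.41 SE, adjusted p = 0.762, edgeR). Hoxc6, a gene of the forelimb level and thorax, stood at 31.3, 30.9 and 25.7 CPM in the primary libraries and at 7.77, 42.5 and 73.0 CPM in the lines (Log2FC 0.49 ± 0.72 SE, adjusted p = 0.757, edgeR). For all 3 the lines lay on both sides of the primary libraries.

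**Figure D4:**
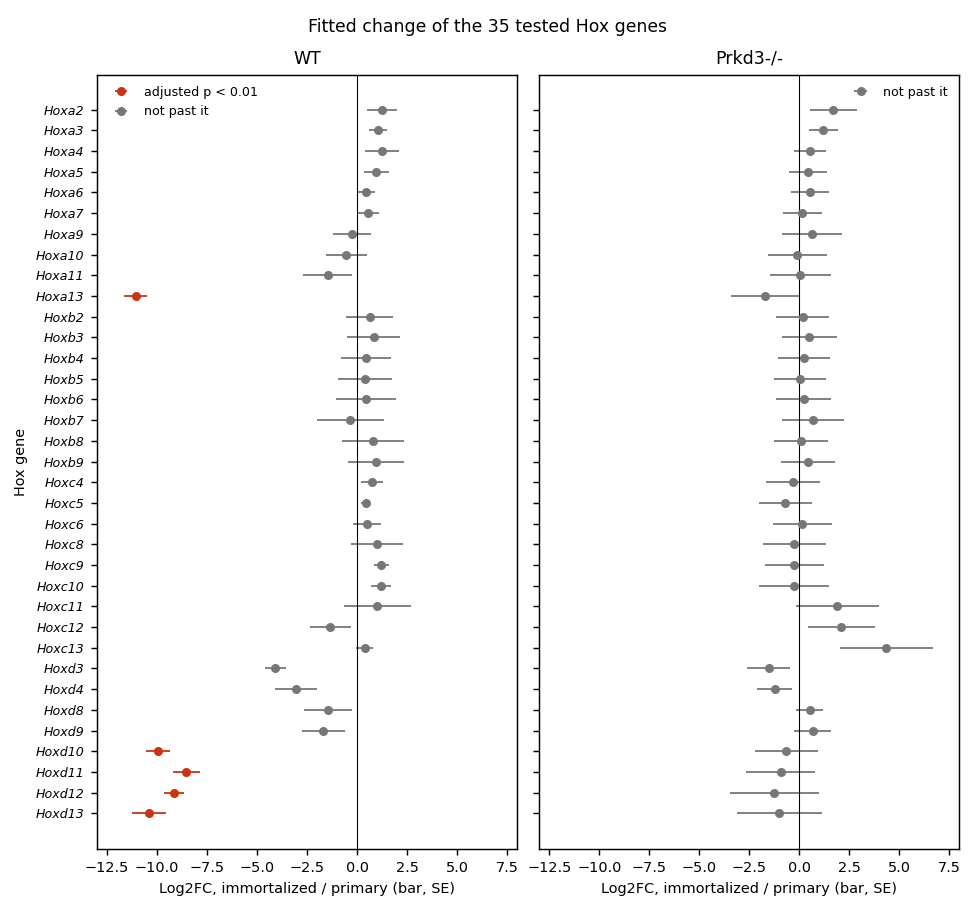
Log2FC of immortalized over primary MEFs from edgeR for the 35 tested Hox genes in WT (left) and Prkd3-/- (right), with the SE as bars; red points passed the adjusted p and |Log2FC| thresholds. In WT, Hoxa13 and Hoxd10 to Hoxd13 lie between -11.08 and -8.53, and in Prkd3-/- no member passed.

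The Prkd3-/- primary cultures did not share a single Hox pattern. Clones 13 and 15 were dominated by posterior Hoxd: Hoxd13 stood at 181 and 129.7 CPM, and posterior genes made up 84.5% and 77.5% of the Hox level. In clone 14, Hoxd13 stood at 7.10 CPM, Hoxa5 led per length, Hoxb9 reached 52.0 CPM, and the posterior share was 21.0%. The summed Hox level was similar in the 3, at 182, 161 and 156 CPM per kb in clones 13, 14 and 15. The members' SD of log2 CPM had a median of 1.45 between these libraries, against 0.26 over all 20298 tested genes. Macrophage markers were also highest in clone 14 and the skeletal muscle markers summed to 29.4 CPM there against 4.39 and 5.33 CPM in the others. Schwann and neural markers were highest there too, at 111 CPM against 87.7 and 105 CPM. Fibroblast (34388 against 57182 and 54598 CPM), endothelial (15.2 against 24.2 and 29.0), epithelial (1.16 against 1.65 and 2.64) and chondrocyte markers (115 against 120 and 159) were lowest there. The part of all these markers in the Hox difference was not tested.

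The Prkd3-/- lines ranged from a nearly pure posterior pattern to a nearly pure anterior one. Line 13 kept Hoxd13 at 204 CPM, Hoxd11 at 46.2 CPM, Hoxa11 at 35.9 CPM and Hoxa13 at 19.9 CPM, and had no Hoxb member above 0.496 CPM and no Hoxc member above 0.0573 CPM. Its posterior share was 89.8%. Line 13a carries the same clone number and looked unlike it, with Hoxb9 at 34.0 CPM, Hoxc6 at 25.9 CPM, Hoxa5 at 39.2 CPM, Hoxd13 at 0.534 CPM and Hoxd12 at 0 CPM. A count of 0 in this library allows up to 0.0424 CPM by counting error, at 3 counts of its total. Its posterior share was 34.8%. Line 14 held no count of Hoxa9, Hoxa10, Hoxa11, Hoxa13 or Hoxd10 to Hoxd13, which allows up to 0.0498 CPM for each. Its leading gene per length was Hoxa2, which patterns the hyoid arch, at 19.8 CPM, its only posterior member above 1 CPM was Hoxb9 at 9.08 CPM, and its posterior share was 5.98%. Its summed Hox level of 63.3 CPM per kb was the lowest of the 13 libraries. Line 15 was led per length by Hoxb9 at 93.4 CPM, held Hoxc13, a gene of hair and nails, at 23.4 CPM against 0.645 CPM in Prkd3-/- primary 15, and had a posterior share of 39.3%.

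With edgeR, none of the 35 tested members was called in Prkd3-/- in either direction, as for all 20298 tested genes (0.0% called; 1331 genes, or 6.56%, and 0 members had an unadjusted p under 0.05). DESeq2 called 163 genes lower (0.473%) and 27 higher (0.0784%), no member among them, and gave 1 member an unadjusted p under 0.05, against 6.22% of the 34447 genes it tested. No member had all lines below or all lines above the primary libraries, against 5.27% and 4.22% of all tested genes. Between the 4 lines the members' SD of log2 CPM had a median of 3.69, against 0.55 over all tested genes. The median Log2FC of the 35 members was 0.16, with 13 below 0. Over all 20298 tested genes the median was 0.068, with 8753 below 0.

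The 5 genes called in WT differed widely among the Prkd3-/- lines and overlapped with the Prkd3-/- primary cultures, among which clone 14 was low. Hoxd13 stood at 181, 7.10 and 129.7 CPM in the primary libraries and at 204, 0.534, 0 and 12.1 CPM in lines 13, 13a, 14 and 15 (Log2FC -0.999 ± 2.12 SE, adjusted p = 0.943, edgeR). Hoxd12 stood at 33.5, 1.43 and 24.7 CPM in the primary libraries and at 33.4, 0, 0 and 0.782 CPM in the lines (Log2FC -1.25 ± 2.21 SE, adjusted p = 0.927, edgeR). Hoxa13 stood at 33.8, 1.42 and 21.1 CPM in the primary libraries and at 19.9, 2.19, 0 and 1.19 CPM in the lines (Log2FC -1.72 ± 1.71 SE, adjusted p = 0.877, edgeR). In each of these genes line 13 lay near or above the lower of primary 13 and 15, and line 14 lay at 0. Hoxd11 stood at 41.7, 2.21 and 36.2 CPM in the primary libraries and at 46.2, 8.04, 0 and 2.74 CPM in the lines (Log2FC -0.94 ± 1.72 SE, adjusted p = 0.931, edgeR). Hoxd10 stood at 11.2, 1.32 and 10.7 CPM in the primary libraries and at 12.98, 6.19, 0 and 0.728 CPM in the lines (Log2FC -0.66 ± 1.58 SE, adjusted p = 0.954, edgeR). In line 13a the log2 ratio of CPM plus 0.1 to primary 13 was -0.85 for Hoxd10, -2.36 for Hoxd11, -8.39 for Hoxd12 and -8.16 for Hoxd13, so the genes nearer the end of the cluster stood far lower than Hoxd10. Without primary 14 the Log2FC of the 5 genes ranged from -2.27 to -1.16, and without line 13 from -6.23 to -1.74, and none passed the test in either case (adjusted p 0.998, and 0.452 to 0.756, edgeR). With the clone number as a block, which sets lines 13 and 13a against primary 13, it ranged from -4.00 to -3.32 (adjusted p = 0.992, edgeR).

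In Prkd3-/- MEFs the leading members of the other clusters went both ways between lines. Hoxa5 stood at 5.53, 37.99 and 7.66 CPM in the primary libraries and at 3.44, 39.2, 13.7 and 35.7 CPM in lines 13, 13a, 14 and 15 (Log2FC 0.42 ± 0.94 SE, adjusted p = 0.947, edgeR). Hoxb9 stood at 9.54, 52.0 and 13.04 CPM in the primary libraries and at 0.496, 34.0, 9.08 and 93.4 CPM in the lines (Log2FC 0.45 ± 1.35 SE, adjusted p = 0.963, edgeR). Hoxc6 stood at 8.18, 34.5 and 9.17 CPM in the primary libraries and at 0.0573, 25.9, 4.45 and 47.2 CPM in the lines (Log2FC 0.16 ± 1.45 SE, adjusted p = 0.992, edgeR). For each of them the ranges of lines and primary cultures overlapped.

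**Figure D5:**
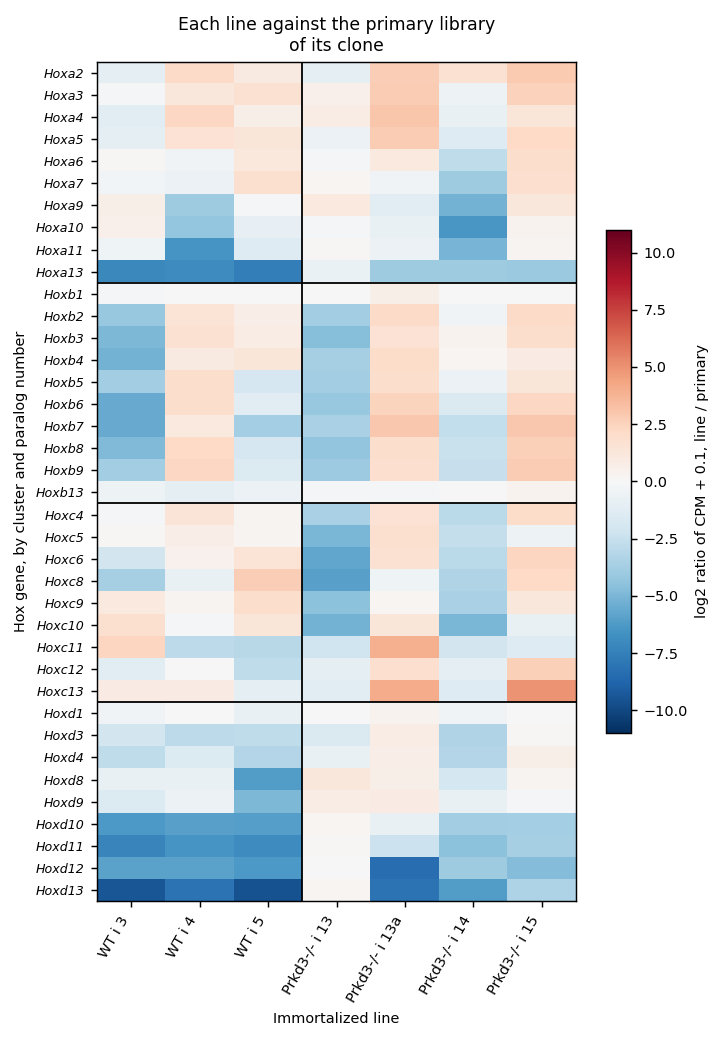
Log2 ratio of CPM plus 0.1 between each immortalized line (columns) and the primary library of the same clone number, for the 38 Hox genes by cluster and paralog number (rows); blue is lower and red higher in the line. The bottom of the Hoxd block is blue in the 3 WT lines and in Prkd3-/- lines 13a, 14 and 15, and whole clusters shift together, such as Hoxb in WT line 3 and Prkd3-/- line 13.

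Against the primary library of the same clone number, Prkd3-/- line 13 held 19 of 35 tested members at least 2-fold lower and 2 higher, against 20.8% and 9.09% of all tested genes. All 8 tested Hoxb and all 9 Hoxc members were among the lower ones. Line 13a, set against the same primary library, held 5 lower and 20 higher, against 6.88% and 6.38%, and its 8 tested Hoxb members were all higher. Lines 13 and 13a thus differed from this primary library in opposite directions at Hoxb. Line 13a is set against it by its name, and no label says that both lines came from the same embryo. Line 14 held 27 lower and 1 higher, against 14.04% and 10.8%. Line 15 held 6 lower and 20 higher, against 12.5% and 7.14%. The single higher member of line 14 was Hoxa2.

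Whether the change with immortalization differed between the genotypes was tested over all 13 libraries. No member and none of the 21197 tested genes passed an adjusted p of 0.05 in edgeR (0.0% called). Of the members, 5 had an unadjusted p under 0.05, against 3.97% of all tested genes (841 genes), and they were Hoxa13 and Hoxd10 to Hoxd13. The difference of Log2FC, Prkd3-/- minus WT, ran from 7.62 ± 2.61 (SE) for Hoxd11 to 9.44 ± 3.36 for Hoxd13, with an adjusted p of 1.00 (edgeR). DESeq2 called 37 genes (0.101% of 36462) and 2 members, Hoxa13 (adjusted p = 0.0499) and Hoxd10 (adjusted p = 0.0290), and gave 5 members an unadjusted p under 0.05, against 3.47% of those genes. Since these genes reached near 0 counts in all WT lines, the size of the fitted difference is not a measured ratio.

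Members that neighbour each other in a cluster varied together across the libraries. Over the 13 libraries, Pearson's r of log2(CPM + 0.1) between neighbouring tested members of a cluster had a median of 0.91 (31 pairs, lowest 0.50 for Hoxa5 and Hoxa6, highest 0.99 for Hoxb2 and Hoxb3). For members of the same cluster that are not neighbours the median was 0.57 (106 pairs). For members of the same paralog number in other clusters it was 0.36 (36 pairs), and for the remaining pairs 0.15 (422 pairs). By cluster, neighbours had a median r of 0.97 in Hoxb, 0.92 in Hoxd, 0.87 in Hoxc and 0.77 in Hoxa. Over the 7 immortalized libraries alone, the medians for neighbours, other pairs of a cluster, same paralog number and remaining pairs were 0.91, 0.62, 0.37 and 0.13. Hoxa13 and Hoxd13, on different chromosomes, had an r of 0.96 over the 13 libraries, the highest of the pairs that share a paralog number. Hoxa13 and Hoxd11, which share neither cluster nor paralog number, had a higher r of 0.987. These values are descriptions over few libraries that share groups, and neighbours such as Hoxd3 and Hoxd4 also share exon bases.

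A library's Hox pattern did not always look most like that of its own clone. Over the 38 members, r of log2(CPM + 0.1) was 0.989 to 0.996 between the 3 WT pMEFs and 0.44 to 0.76 between the WT lines. Prkd3-/- line 13 had an r of 0.77 with primary 13 and of 0.10 with primary 14. Line 13a had an r of 0.42 with primary 13 and of 0.76 with primary 14, and its r with line 13 was 0.098. Line 14 had an r of 0.77 with primary 14, and line 15 an r of 0.63 with primary 15 and of 0.81 with primary 14. Primary 13 and 15 were alike (r of 0.98).

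Pbx, Meis and Pknox proteins bind DNA together with Hox proteins and are called TALE cofactors. None of the 9 was called in either genotype. Meis2 stood at 38.7, 37.7 and 31.8 CPM in WT pMEFs and at 114, 76.6 and 57.3 CPM in the WT lines, higher in every line, with Log2FC 1.19 ± 0.26 (SE, adjusted p = 0.0650, edgeR). DESeq2 gave an adjusted p under 0.01 for 2 of the 9 in WT, without regard to the |Log2FC| limit. They were Meis2 (adjusted p = 0.00120) and Pbx2 (adjusted p = 8.27e-05), which went the other way (Log2FC -0.46 ± 0.08 SE, edgeR). With that limit, DESeq2 called 3.71% of all tested genes lower and 0.375% higher in WT.

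Of 24 genes known to control the clusters (Polycomb and Trithorax subunits, Ctcf, Cdx factors, retinoic acid and limb signalling), 19 were tested and 1 was called by edgeR, lower in WT. This was Aldh1a2, the enzyme that makes retinoic acid in the embryo, at 1.59, 1.47 and 1.54 CPM in WT pMEFs and 0.0161, 0 and 0.0457 CPM in the WT lines (Log2FC -6.05 ± 0.66 SE, adjusted p = 0.00708, edgeR). In Prkd3-/- it stood at 2.35, 3.41 and 4.40 CPM in the primary libraries and at 0.0382, 3.88, 0.0313 and 0.701 CPM in lines 13, 13a, 14 and 15. The Polycomb gene Bmi1 stood at 47.2, 47.4 and 44.0 CPM in WT pMEFs and at 67.8, 107.6 and 72.6 CPM in the WT lines (adjusted p = 0.0718, edgeR), and Ezh2, Eed and Suz12 had adjusted p from 0.868 to 0.900. Rarg, a retinoic acid receptor, had the highest level per length of the list and did not pass the test (Log2FC 0.14 ± 0.12 SE, adjusted p = 0.582, edgeR). The Cdx genes were too low to be tested. DESeq2 gave an adjusted p under 0.01 for 3 of the list in WT, without regard to the |Log2FC| limit. They were Aldh1a2, Bmi1 (adjusted p = 0.00547) and the retinoic acid receptor Rarb (adjusted p = 0.00172). In edgeR, Rarb had a Log2FC of -1.38 ± 0.33 (SE, adjusted p = 0.0825).

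Among non-coding genes of the clusters, 16 of 18 were matched and 9 were tested in WT, with none called by edgeR. Hottip, transcribed from the end of Hoxa next to Hoxa13, stood at 0.169, 0.250 and 0.393 CPM in WT pMEFs and at 0.0161, 0 and 0 CPM in the WT lines (adjusted p = 0.0261, edgeR). It was the only 1 of this list with an adjusted p under 0.01 in DESeq2 (adjusted p = 0.000976). Hoxb5os, antisense to Hoxb5, had the highest level per length of them. Hoxa11os, antisense to Hoxa11, stood at 17.7, 18.7 and 20.3 CPM in WT pMEFs and at 9.02, 0.254 and 4.70 CPM in the WT lines. Counting was not by strand, and Hoxa11 has 34.98% of its exon bases in common with Hoxa11os, as Hoxb3 has 52.9% with Hoxb3os, so reads in those shared bases cannot be assigned to either gene.

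Of 22 genes that flank the clusters, 19 were matched, 16 were tested in WT and 1 was called by edgeR. Evx2, the homeobox gene that stands beyond Hoxd13, fell with it, from 3.45, 3.65 and 5.08 CPM in WT pMEFs to 0 in all 3 lines, a pooled level at least 247-fold higher in pMEFs when the lines are set at 3 counts (adjusted p = 0.00387, edgeR). Mtx2, on the Hoxd1 side, and Lnpk, beyond Evx2, did not pass the test (Log2FC -0.18 ± 0.11 SE, adjusted p = 0.414, and 0.05 ± 0.09 SE, adjusted p = 0.835, edgeR). Atp5g3, which makes a subunit of the mitochondrial ATP synthase, had the highest level per length of the list and did not pass either (adjusted p = 0.382, edgeR). DESeq2 gave an adjusted p under 0.01 for 2 of the list in WT, without regard to the |Log2FC| limit. They were Evx2 and Snx10, on the chromosome of Hoxa (adjusted p = 1.70e-06). In edgeR, Snx10 had a Log2FC of -1.17 ± 0.18 (SE, adjusted p = 0.0202). In Prkd3-/- Evx2 stood at 10.1, 0.296 and 7.85 CPM in the primary libraries and at 5.82, 0, 0 and 0.944 CPM in lines 13, 13a, 14 and 15. None of the regulators, non-coding or flanking genes was called in Prkd3-/- MEFs.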

How the data were processed

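Poly-A RNA-seq of 13 MEF libraries was analysed from raw counts per gene. The authors aligned reads to mm10 (GRCm38) with STAR 2.7.10a, handled files with SAMtools 1.18, checked quality with FastQC 0.12.0, and counted read pairs per Ensembl gene with featureCounts of Subread 2.0.6, without strand and with overlapping genes each given the pair; the deposited values are whole-number counts. Options for the Prkd3-/- table were not given in the sources used here, but its genes and lengths are those of the WT table. No column of values was left unused (0).

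Each genotype was fitted alone with edgeR 4.0.16 in R 4.3.3 (TMM, filterByExpr, robust quasi-likelihood test, Benjamini-Hochberg over all tested genes, called at adjusted p below 0.01 with |Log2FC| ≥ 1); the genotype difference over 13 libraries was called at an adjusted p below 0.05. DESeq2 1.42.0 and limma 3.58.1 served as alternatives. The fits were tested on simulated data with the same spread set for every gene and both states. The wider spread of the real lines was not simulated, so that test does not cover it. Levels are CPM with TMM factors from all 13 libraries, and CPM per kb of exon between genes. Log2 CPM for spreads used 1 added count, ratios within a clone 0.1 CPM. Exact intervals and the limit of 3 counts cover counting error only. Sequences come from RefSeq, GRCm38.p6. Libraries of a group differed by more than sampling noise. Replicates are separate clones; for Prkd3-/-, nothing names their embryos beyond the clone numbers, so p-values there measure the spread between samples. Same-numbered WT cultures come from the same embryo, which pairs them, and line 13a was taken as clone 13 by its name; correlations of deviations within pairs were -0.047 to 0.040 in WT and -0.30 to 0.16 in Prkd3-/-.

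All 38 members are described; full statistics are given for members called and for the highest member per length of each cluster, and of other lists the genes called and the highest by level, with other genes named after their values were seen. One gene that this rule would name is not reported here. The members and lists were chosen with earlier results of these data known. Alternatives covered test, scaling, filter, block and each library left out.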

Additional observations from a re-analysis of the deposited data

Results flagged for a closer look

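Among the 4 Prkd3-/- lines, 4 values stood far from the other 3 by Dixon's criterion on log2 CPM, out of 40 quantities examined in that group, where chance flags about 1 in 20. Line 14 held Hoxa10 at 0 CPM against 35.3, 23.4 and 43.0 CPM in lines 13, 13a and 15, and Hoxa11 at 0 CPM against 35.9, 21.6 and 33.2 CPM. Line 13 held Hoxb2 at 0.0954 CPM against 11.2, 17.2 and 15.2 CPM in lines 13a, 14 and 15, and Hoxb5 at 0.0191 CPM against 6.27, 6.64 and 6.12 CPM. Members of a cluster varied together, so the 40 quantities were not independent and the rate of 1 in 20 cannot weigh the 4 flags. Groups of 3 libraries were not examined.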

How the results depend on the processing

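In WT, the 5 Hox genes called lower numbered 5 with DESeq2's size factors, with library size alone and without robust estimation, and 6 with DESeq2, without a filter on low counts, and at an adjusted p below 0.05. They numbered 2 with limma (Hoxd10 and Hoxd12), and 0 with the embryo number as a replicate block, 0 in a joint fit of all 13 libraries, and 0 when every library had to hold at least 10 counts, a filter that removes genes lost in the lines by construction (20 members tested). Over all genes, those called lower numbered 349 of 19836 in the main fit, 183 of 19836 with limma and 0 with the block. In the joint fit they numbered 0 of 21197, with the filter of 10 counts 153 of 17073, and with DESeq2 1236 of 33349. Leaving out 1 library at a time gave 0 to 7 Hox genes called lower, and 48 to 705 over all genes. No alternative called a Hox gene in Prkd3-/-, and the block changed no other call. For the genotype difference DESeq2 called 2 and leaving out 1 library gave 0 to 0. The Log2FC of Hoxb9 in WT turned to -1.06 with limma, -1.14 with the block and -2.43 without line 4, and in Prkd3-/- to -0.71 with limma and -0.77 without line 15. That of Hoxc6 in WT turned to -0.016 with limma and -0.22 without line 5, and in Prkd3-/- to -1.53 with limma, -0.18 without primary 13, -0.16 without primary 15, -0.03 without line 13a and -0.77 without line 15. Leaving out 1 library, Hoxb9 ran up to 1.504 in WT and 1.59 in Prkd3-/-, and Hoxc6 up to 0.98 and 1.16. The cause of the other shifts was not tested. The posterior share, immortalized minus primary, stayed negative when 1 library was left out (-29.1 to -6.16 percentage points in WT, -38.5 to -6.37 in Prkd3-/-), whereas the summed level changed sign (-27.2 to 44.9 and -37.2 to 20.2 CPM per kb). With all libraries the share differed by -15.1 points in WT and -18.5 in Prkd3-/-. Both lay within the larger SD of the groups compared (24.5 and 34.8 points). Low members are limited by depth, and 3 counts equal 0.0299 to 0.0850 CPM of the library totals without TMM scaling, as do the limits given for a count of 0.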
